A study of Homo sapiens with 11 samples.

Results

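The regions described here are the replication origins that were called in HCT116 cells lacking RepID and that share no base with any origin called in U2OS cells, on chromosomes 1 to 22. They are named KO-only origins below. They were selected by comparing the deposited origin list of HCT116 RepID KO cells with that of U2OS WT cells, and they number 33334 of the 83872 RepID KO origins on these chromosomes (39.7%) and of the 407030 regions in all 8 lists of the series. The other 50538 RepID KO origins (60.3%) share at least 1 base with a U2OS origin and are named shared origins.

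The series mapped replication origins and the chromatin binding of ubiquitin ligase components in asynchronous cultures of human cancer cell lines grown in DMEM medium with fetal bovine serum. HCT116 is a colon carcinoma line and U2OS an osteosarcoma line. Of its 11 samples, 8 have a list of enriched regions and the other 3 are inputs without a list. The question put to the KO-only origins here was where they lie and how often the other lists meet them.

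Origins came from 1 nascent-strand library of a RepID KO clone of HCT116, in which RepID, the product of the PHIP gene, was disrupted by CRISPR-Cas9 editing, and from 1 nascent-strand library of untreated U2OS cells with intact RepID. SKP2 ChIP-Seq came from HCT116 WT and from HCT116 RepID KO cells, and CUL4A, H3K4me3 and H3K9me3 ChIP-Seq from U2OS WT cells. The CDT2 list is labelled U2OS, and the sources differ on whether these cells were wild type or stably overexpressed FLAG-tagged full-length RepID. Each list comes from 1 library, so no spread between replicates could be measured, no p-value is given, and each difference is a difference between lists of regions. Because the cell line and the RepID genotype both differ between the origin lists, they cannot be told apart as sources of a KO-only origin, and no origins of HCT116 WT cells were used here. Since the KO line is 1 clone, its genotype cannot be told apart from other properties of that clone. Sequencing depth is unknown, and a region missing from a list was not called there, which does not show that nothing was there.

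Replication starts at many origins in each S phase, and cells use only part of the sites that are licensed in G1, so different lines share some origins and not others. Licensing needs CDT1, which ubiquitin ligases remove after it has acted. CUL4A is a scaffold of the CRL4 ligase and CDT2 is the CRL4 substrate receptor for CDT1. RepID is another CRL4 receptor and binds a group of origins. SKP2 is the receptor of the SCF ligase, which is built on CUL1 and also targets CDT1. H3K4me3 marks the starts of active genes, and H3K9me3 marks silent heterochromatin. The lists are in the hg19 build per the submitters' processing notes, and positions below are counted from 1. Genes at these positions were not assigned and no sequence is given, since a genome or annotation of that build was not used here.

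KO-only origins were short and had low scores. Their width ranged from 200 to 88800 bp with a median of 1400 bp (middle 50% of origins 800 to 2400 bp), against a median of 2600 bp (1600 to 5000 bp) in shared origins. They covered 64.2 Mb, and shared origins covered 218.9 Mb. The authors' whole-number score, whose scale is not stated, had a median of 105 (71 to 184) in KO-only origins and 223 (107 to 592) in shared origins. Per kb of origin the medians were closer, at 80.8 and 94.6. These values belong to the lists that chose the members and are given as a description.

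Among origins of RepID KO cells with lower scores or smaller widths, a larger share was KO-only. This is a description, since the rule used these lists and a narrow origin has fewer bases that could be shared with a U2OS origin. When these origins were divided by score into 5 groups of equal size, KO-only origins made up 60.7% of the group with the lowest scores, 51.8, 43.6 and 30.4% of the next groups and 12.2% of the group with the highest. By width, they made up 65.9% of origins of 200 to 400 bp and 5.31% of origins over 8000 bp. Still, the group with the highest scores held 2042 KO-only origins.

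Of the KO-only origins, 45.9% lay within 5 kb of a U2OS origin. The distance to the nearest one had a median of 6000 bp (middle 50% of origins 2200 to 16600 bp) and reached 1444400 bp. In all, 12.3% lay within 1 kb, 33.7% between 1 and 5 kb, 32.8% between 5 and 20 kb, 16.7% between 20 and 100 kb, and 4.54% (1514 origins) farther than 100 kb. The median score differed little over these classes, from 108 within 1 kb to 98 beyond 100 kb, and the median width was 1600 bp within 5 kb and 1400 bp beyond.

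At the edge of the definition, 470 KO-only origins (1.41%) touched a U2OS origin with no base between them and another 428 (1.28%) lay within 200 bp of one. On the other side, 1030 shared origins (2.04%) had no more than 200 bp in common with U2OS origins. These neighbours had similar sizes, with a median width of 1600 bp and score of 101 in the KO-only origins within 200 bp and 1200 bp and 85.5 in the shared ones. Shared origins were mostly shared over much of their length: 21297 (42.1%) were covered whole, and 9215 (18.2%) were covered over less than 50% of their width.

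SKP2, mapped in the same cell line, was found at few KO-only origins. In RepID KO cells, SKP2 peaks met 1111 KO-only origins, a share of 3.33% (Wilson 95% interval 3.15 to 3.53%), and 9.23% (8.98 to 9.49%) of shared origins, beside 6.89% of all RepID KO origins on these chromosomes. The KO-only share was lower by 5.90 percentage points (Newcombe 95% interval of the signed difference -6.22 to -5.58), and by 1.73 points when only 1 kb around each origin centre was counted. In WT cells, SKP2 peaks met 1067 KO-only origins, 3.20% (3.02 to 3.40%), and 8.78% (8.53 to 9.03%) of shared origins, beside 6.56% of all, a difference of -5.58 points, or -1.43 with 1 kb around each centre. The shares of KO-only origins met by the SKP2 lists of the WT and RepID KO cells lay within each other's intervals. These intervals cover counting error only and treat neighbouring regions as independent.

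A SKP2 peak of a single genotype was more frequent than a peak of both, among KO-only and shared origins alike. Each SKP2 list comes from 1 library, and the overlap of the whole SKP2 lists was not counted, so this describes the lists. Of all RepID KO origins on these chromosomes, 6.89% met a SKP2 peak of RepID KO cells and 6.56% one of WT cells. A peak of both genotypes was found at 286 KO-only origins (0.858%), a peak of RepID KO cells alone at 825 (2.48%, interval 2.31 to 2.65%), and a peak of WT cells alone at 781 (2.34%, 2.19 to 2.51%). Shared origins were met by peaks of both genotypes in 2.43% of cases, of RepID KO cells alone in 6.80% and of WT cells alone in 6.35%. Among KO-only origins with a SKP2 peak of RepID KO cells, 25.7% (23.3 to 28.4%) had one in WT cells, and among shared origins with such a peak 26.3% (25.1 to 27.6%) had one, so these shares lay within each other's intervals.

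CUL4A, the CRL4 scaffold, was the list that met KO-only origins most often. CUL4A regions of U2OS cells met 7027 of them, 21.1% (20.7 to 21.5%), and 52.0% (51.6 to 52.4%) of shared origins, beside 39.7% of all, a difference of -30.9 points (-31.5 to -30.3). CDT2 peaks met 1648 KO-only origins, 4.94% (4.72 to 5.18%), and 16.9% (16.5 to 17.2%) of shared origins, beside 12.1% of all, a difference of -11.9 points (-12.3 to -11.5). With 1 kb around each centre the differences were -25.1 points for CUL4A and -4.55 points for CDT2. The CDT2 share of KO-only origins was 0.293 times and the CUL4A share 0.406 times that of shared origins, and with 1 kb around each centre the ratios were 0.447 and 0.425. CUL4A, CDT2 and both histone marks were mapped in the cells whose origins define the rule, so these lists share the cell line with the origins that KO-only origins lack.

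The histone marks of U2OS cells followed the same direction to different extents. H3K4me3 peaks met 4252 KO-only origins, 12.8% (12.4 to 13.1%), and 22.4% (22.02 to 22.7%) of shared origins, beside 18.6% of all, a difference of -9.62 points (-10.1 to -9.11). H3K9me3 peaks met 2640 KO-only origins, 7.92% (7.64 to 8.22%), and 22.4% (22.1 to 22.8%) of shared origins, beside 16.7% of all, a difference of -14.5 points (-14.96 to -14.03). With 1 kb around each centre the differences were -5.31 points for H3K4me3 and -4.57 points for H3K9me3. Counted over their whole width, shared origins were thus met equally often by both marks, and KO-only origins more often by H3K4me3. With 1 kb around each centre, H3K4me3 was the more frequent mark in both classes. It then met 11.8% of KO-only and 17.1% of shared origins, against 5.28 and 9.85% for H3K9me3. Over whole origins, the H3K4me3 ratio of KO-only to shared origins was 0.570, the highest of the 6 lists, and the H3K9me3 ratio was 0.353.

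All 6 lists met KO-only origins less often on each of the 22 chromosomes. The ratio to shared origins ranged over chromosomes from 0.467 to 0.847 for H3K4me3 and from 0.176 to 0.467 for CDT2. Among KO-only origins alone, the share with CUL4A ranged from 13.9% on chromosome 13 to 38.3% on chromosome 22, and the share with H3K4me3 from 9.86% on chromosome 2 to 16.6% on chromosome 19.

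The shares also differed between classes of width, and the highest share of each list, in KO-only and in shared origins, was in the class over 8000 bp. KO-only origins met each list less often than shared origins in all 6 width classes. Averaged over the width classes, with weights set by the numbers of both KO-only and shared origins in each class, the difference was smaller for each of the 6 lists than that over all origins. For SKP2 of RepID KO cells, the shares at 4200 to 8000 bp were 8.74% (7.63 to 10.0%) in KO-only and 11.02% (10.4 to 11.7%) in shared origins, and the averaged difference was -3.01 points. For CUL4A it was -21.2 points, for CDT2 -7.74 points, for H3K4me3 -6.66 points and for H3K9me3 -8.54 points.

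**Figure D1:**
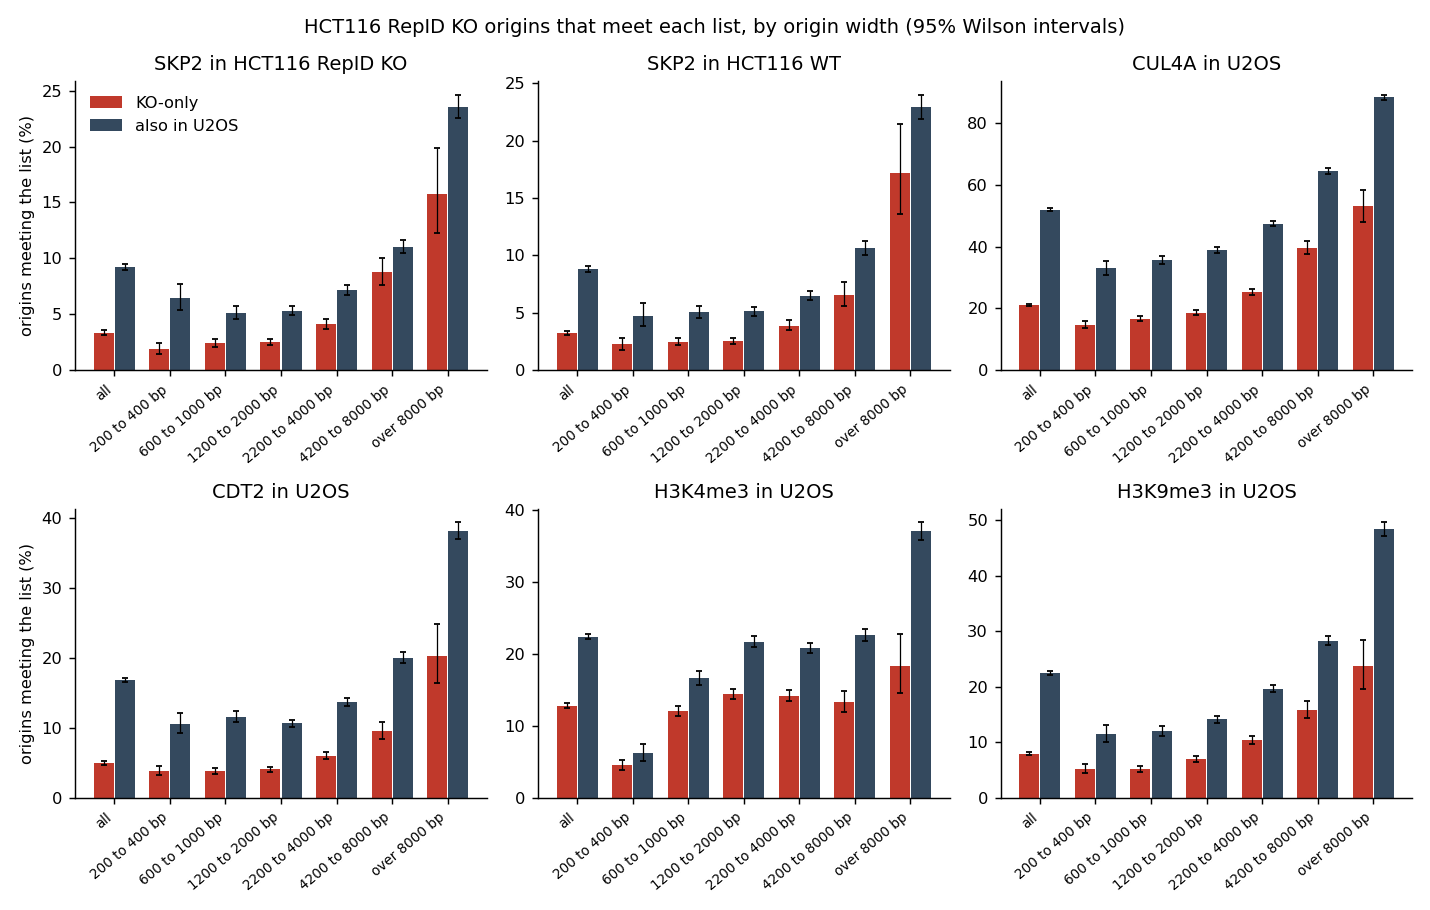
Percentage of HCT116 RepID KO origins that share at least 1 bp with a region of each of the 6 lists, for KO-only origins (red) and origins shared with U2OS (dark blue), over all origins and in 6 classes of origin width. Bars start at 0, each panel has its own scale and error bars are Wilson 95% intervals: the red bar is the lower one in every class, and for CUL4A the KO-only share ranges from 14.6% at 200 to 400 bp to 53.1% over 8000 bp.

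Between 600 and 8000 bp, H3K4me3 was the list whose share varied least with width in KO-only origins. From 600 to 1000 bp it was 12.0% (11.3 to 12.8%), from 1200 to 2000 bp 14.4% (13.7 to 15.02%), from 2200 to 4000 bp 14.1% (13.4 to 14.9%) and from 4200 to 8000 bp 13.3% (11.9 to 14.8%), while CUL4A met 16.7, 18.6, 25.3 and 39.7% in the same classes. Below 600 bp the H3K4me3 share was 4.51%, and over 8000 bp it was 18.3% (14.6 to 22.7%). KO-only origins with H3K4me3 had a median width of 1600 bp and a median score of 172, against 1400 bp and 93 in the 20513 KO-only origins that met no list.

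H3K4me3 was less frequent at KO-only than at shared origins both with and without CUL4A, and the gap was wider with it. Among origins that met CUL4A, H3K4me3 was found at 12.3% (11.55 to 13.1%) of KO-only and 25.7% (25.2 to 26.2%) of shared origins. Among those that met no CUL4A, it was found at 12.9% (12.5 to 13.3%) of KO-only and 18.8% (18.3 to 19.3%) of shared origins. At 1 to 3 kb the shares were 12.9 and 22.7% with CUL4A and 14.5 and 20.45% without it. As a share of all origins of their class, those with H3K4me3 and no CUL4A were 3388 KO-only origins, 10.2% (9.84 to 10.5%), and 9.02% (8.77 to 9.27%) of shared origins, which more often met CUL4A. Within each width class up to 8000 bp, the intervals of this share overlapped between KO-only and shared origins. Over 8000 bp it was 8% (5.59 to 11.3%) of 350 KO-only and 3.01% (2.62 to 3.47%) of shared origins. Read the other way, CUL4A met 20.3% (19.1 to 21.6%) of KO-only origins with H3K4me3 and 21.2% (20.7 to 21.7%) of those without, whereas it met 59.7 and 49.8% of shared origins with and without the mark. At origins of 1 to 3 kb these shares were 18.1 and 20.1% in KO-only and 43.4 and 40.2% in shared origins.

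CUL4A, CDT2 and H3K9me3 were each found more often at the KO-only origins that met another of them. Of KO-only origins with CUL4A, 20.7% (19.8 to 21.7%) had H3K9me3 and 15.4% (14.5 to 16.2%) had CDT2, against 4.50 and 2.16% of those without CUL4A. Of KO-only origins with CDT2, 65.5% (63.2 to 67.8%) had CUL4A and 39.4% (37.1 to 41.8%) had H3K9me3. Wide origins could meet several lists at once, so the counts were repeated for KO-only origins of 1 to 3 kb, where 20.5% with CUL4A and 4.38% without it had H3K9me3, and 40.4% with CDT2 and 6.09% without it had H3K9me3. A comparable pattern was present in shared origins of this width, with H3K9me3 at 53.1% of those with CDT2 and 10.7% of those without.

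KO-only origins with SKP2 in RepID KO cells carried more CUL4A, CDT2 and H3K9me3 in the U2OS lists, and less H3K4me3. CUL4A was found at 37.6% (34.8 to 40.5%) of the 1111 and at 20.5% (20.07 to 20.95%) of the rest, CDT2 at 21.5% (19.2 to 24.0%) and 4.37%, and H3K9me3 at 21.6% (19.3 to 24.1%) and 7.45%. H3K4me3 was found at 8.91% (7.37 to 10.7%) and 12.9% (12.5 to 13.3%). Since those with SKP2 were wider, with a median of 2200 bp, the same was counted at 1 to 3 kb, where 554 had SKP2. There the shares with and without SKP2 were 33.8 and 19.4% for CUL4A, 18.6 and 3.94% for CDT2, 20.9 and 7.19% for H3K9me3, and 8.66 and 14.3% for H3K4me3. Shared origins of this width followed the same directions. Their shares with and without SKP2 were 54.05 and 40.1% for CUL4A and 27.2 and 10.7% for CDT2. For H3K9me3 they were 30.3 and 14.7%, and for H3K4me3 13.2 and 21.85%.

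Most KO-only origins met no region of any of the 6 lists. These were 20513 of 33334 origins, 61.5%, against 15485 of 50538 shared origins, 30.6%. KO-only origins were shorter, with a median of 1400 against 2600 bp, and the part of width in these shares was not tested. Another 9298 (27.9%) met 1 list, 2506 (7.52%) met 2, 741 (2.22%) met 3, 186 (0.558%) met 4, 72 (0.216%) met 5 and 18 (0.054%) met all 6. Of shared origins, 32.7% met 1 list, 19.7% met 2, 10.4% met 3, 4.60% met 4, 1.62% met 5 and 0.307% met all 6. CUL4A with neither CDT2 nor a histone mark was found at 4342 KO-only origins (13.03%) and at 21.25% of shared origins.

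The stronger KO-only origins met the lists more often. When the KO-only origins were divided by score into 5 groups of equal size, H3K4me3 was found at 5.27% of the group with the lowest scores and 25.95% (24.9 to 27.0%) of the group with the highest, CUL4A at 13.5 and 34.7%, SKP2 of RepID KO cells at 2.03 and 6.44%, H3K9me3 at 5.43 and 11.4%, and CDT2 at 3.23 and 8.15%. The median width in these groups was 600 and 3200 bp, and the part of width in these shares was not tested.

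The lists were centred on KO-only origins, as they were on shared ones. Around origins of 1 to 3 kb, the percentage of origins covered by each list was taken in bins of 100 bp, and the central 1 kb was compared with the outermost 1 kb on each side of a window reaching 10 kb from the centre. For 19809 KO-only origins, H3K4me3 covered 11.4% at the centre and 2.20% at the outside, a ratio of 5.19, near the 4.95 of the 23259 shared origins. For SKP2 of RepID KO cells the coverage was 0.897 and 0.400%, a ratio of 2.24, against 3.79 in shared origins. For CUL4A it was 15 and 8.18%, a ratio of 1.84, against 2.28. For CDT2 the ratio was 1.82 against 3.47, and for H3K9me3 1.45 against 2.76. H3K4me3 was the only list with a ratio not lower in KO-only than in shared origins.

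**Figure D2:**
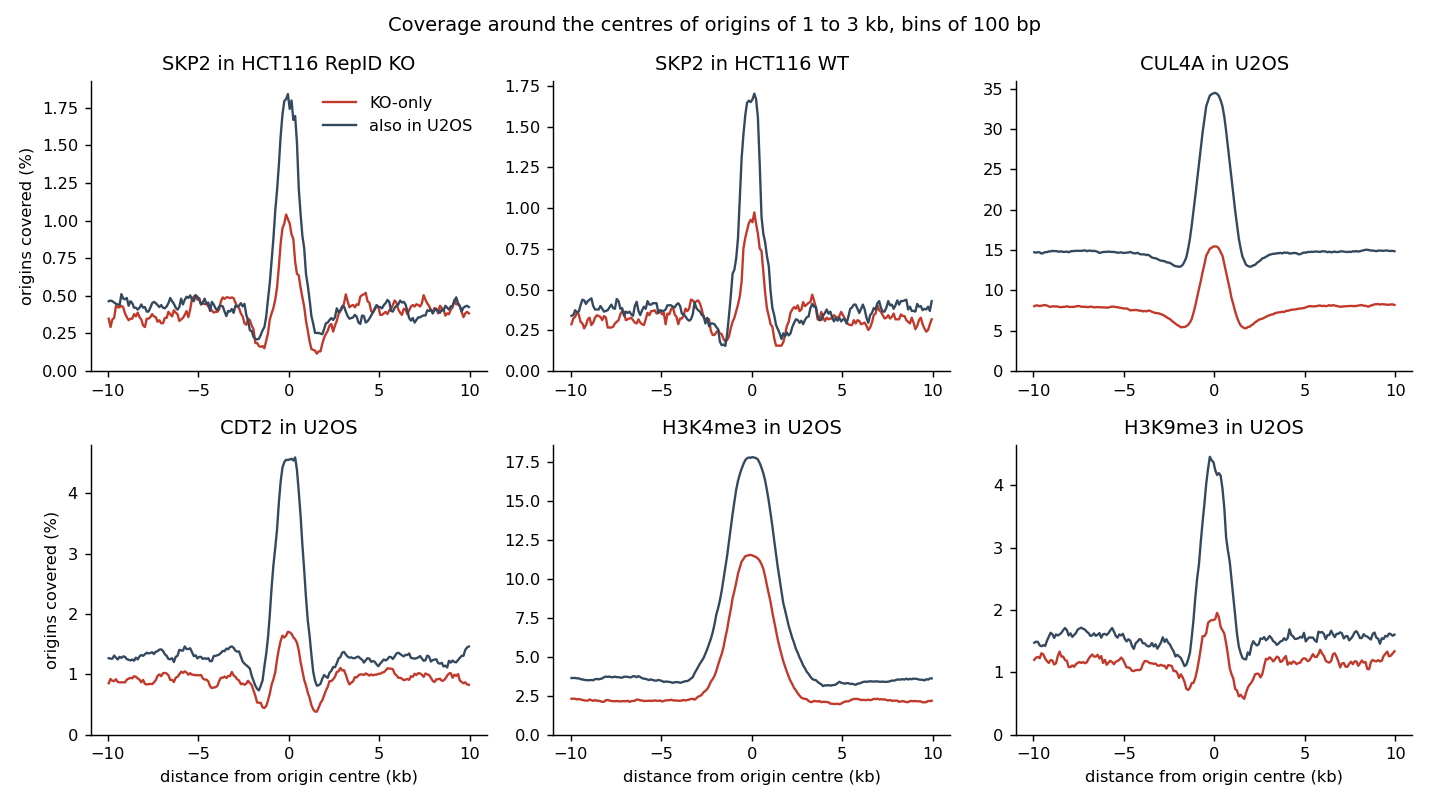
Percentage of origins covered by each list in bins of 100 bp, against the distance from the origin centre in kb, for 19809 KO-only (red) and 23259 shared (dark blue) origins of 1 to 3 kb. Each panel has its own vertical scale starting at 0: all 6 lists have their maximum near the centre in both classes, and away from the centre CUL4A covers 8.18% around KO-only and 14.8% around shared origins.

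CUL4A and H3K4me3 differed in how they changed with distance from U2OS origins. CUL4A met 26.2% (24.9 to 27.6%) of KO-only origins within 1 kb of a U2OS origin, 24.8% at 1 to 5 kb, 20.3% at 5 to 20 kb, 14.4% at 20 to 100 kb and 9.64% (8.26 to 11.2%) beyond 100 kb. H3K4me3 met 10.8% (9.92 to 11.8%) within 1 kb, 11.6, 12.99 and 16.1% (15.2 to 17.1%) in the next classes and 12.75% (11.2 to 14.5%) beyond 100 kb. SKP2 of RepID KO cells stayed between 2.50 and 3.77% over the 5 classes, with 2.91% (2.17 to 3.88%) beyond 100 kb, and SKP2 of WT cells between 2.32 and 3.41%. For CDT2 and H3K9me3 the lowest shares were those beyond 100 kb, at 2.44% (1.78 to 3.35%) and 4.36% (3.44 to 5.51%).

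**Figure D3:**
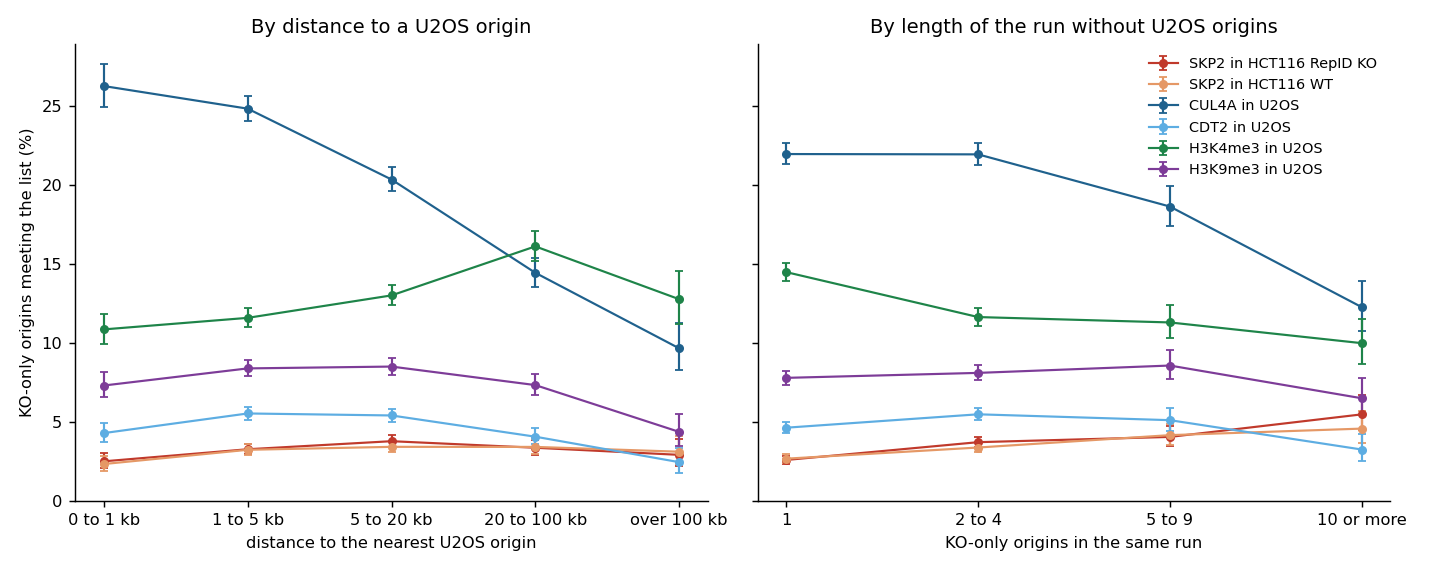
Percentage of KO-only origins that share at least 1 bp with each of the 6 lists, against the distance to the nearest U2OS origin (left, 5 classes) and against the number of KO-only origins in the same run without a U2OS origin (right, 4 classes), with Wilson 95% intervals. CUL4A (dark blue) is lowest in the farthest class and the longest runs, H3K4me3 (green) is above CUL4A at 20 to 100 kb and beyond 100 kb, and SKP2 of RepID KO cells (red) ranges from 2.58% in runs of 1 to 5.465% in runs of 10 or more.

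From the side of the partner lists, KO-only origins took up the sites without a U2OS origin to unequal extents. Of 9438 H3K4me3 peaks that met no U2OS origin, 4031 met a KO-only origin, 42.7% (41.7 to 43.7%). For CUL4A these were 6351 of 16845 regions, 37.7% (37.0 to 38.4%), for SKP2 of RepID KO cells 1189 of 5839 peaks, 20.4% (19.4 to 21.4%), for SKP2 of WT cells 20.8%, for CDT2 19.4%, and for H3K9me3 2730 of 29573 peaks, 9.23% (8.91 to 9.57%). H3K4me3 and CUL4A regions are wider than the others, with medians of 1878 and 2000 bp against 321 to 551 bp, and the part of width in this order was not tested.

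KO-only origins were spread more evenly over the chromosomes than U2OS origins, taking the largest end in any list as the length of a chromosome. Their share of the RepID KO origins was highest on chromosomes 13, with 1298 of 1869 (69.5%, 67.3 to 71.5%), 4 (60.3%, 58.5 to 62.2%), 18 (57.1%, 54.9 to 59.4%) and 21 (50.4%, 47.5 to 53.3%), and lowest on chromosomes 22 (24.0%, 22.4 to 25.7%) and 17 (26.6%, 25.3 to 27.9%). On chromosome 13 the U2OS list held 10.7 origins per Mb, the lowest density of any chromosome here, and the RepID KO list 16.2 per Mb, of which 11.3 were KO-only. On chromosome 17 the densities were 72.1 and 54.1 per Mb, of which 14.4 were KO-only. The same order was seen at a smaller scale: in windows of 5 Mb ordered by their number of U2OS origins, KO-only origins made up 67.6% (66.8 to 68.4%) of RepID KO origins in the 189 windows with the fewest, 46.7% (46.1 to 47.4%) in the 189 windows between and 29.0% (28.6 to 29.4%) in the 189 with the most. This follows in part from the rule, since a place with few U2OS origins offers few to overlap. Among the 423 windows with at least 50 RepID KO origins, the KO-only share ranged from 8.36 to 98.3% with a median of 38.9%.

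**Figure D4:**
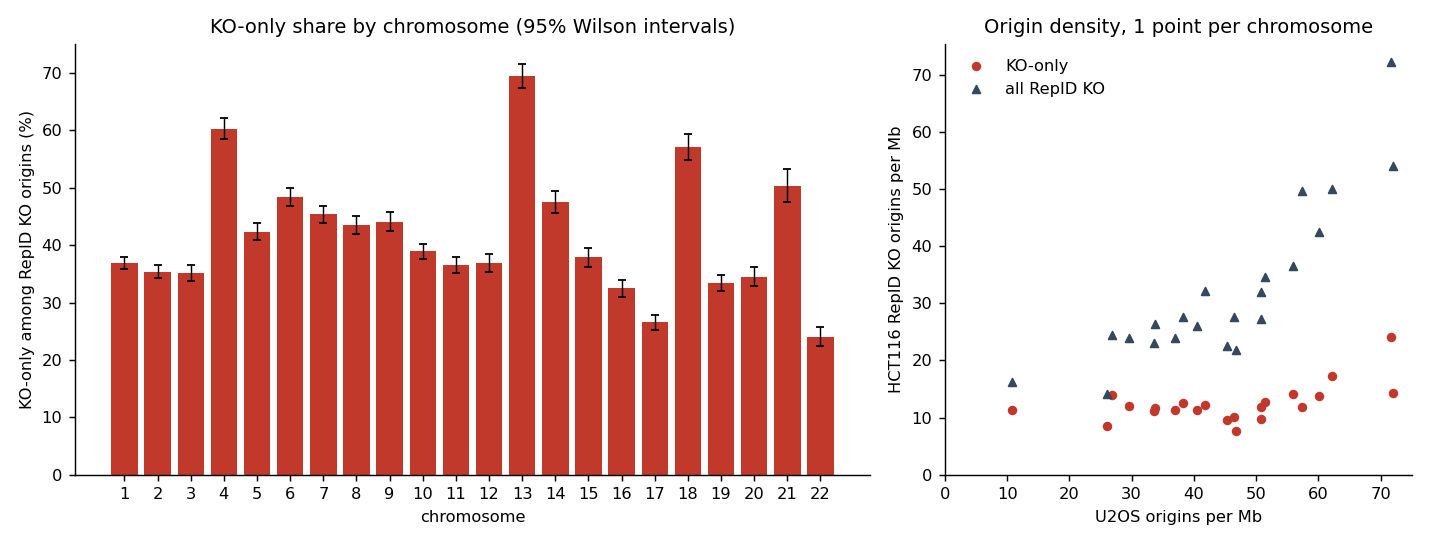
Left: KO-only origins as a percentage of the RepID KO origins of each chromosome, bars from 0 with Wilson 95% intervals; chromosome 13 is highest at 69.5% and chromosome 22 lowest at 24.0%. Right: origins per Mb in the RepID KO list (dark blue triangles) and KO-only origins per Mb (red circles) against U2OS origins per Mb, 1 point of each kind per chromosome; U2OS densities span 10.7 to 72.1 per Mb, and the KO-only densities span 7.69 to 24.1 per Mb.

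KO-only origins also met the lists less often within windows of similar U2OS origin density. Within the windows with the fewest U2OS origins, CUL4A met 15.7% (14.97 to 16.5%) of KO-only and 48.5% (47.01 to 50.03%) of shared origins, H3K4me3 14.97% (14.2 to 15.7%) and 24.9% (23.7 to 26.3%), and SKP2 of RepID KO cells 3.32% (2.97 to 3.72%) and 9.25% (8.42 to 10.2%). Within the windows with the most, CUL4A met 25.3 and 54.2%, H3K4me3 11.3 and 22.1%, and SKP2 of RepID KO cells 3.20 and 9.48%.

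KO-only origins lay both alone and next to each other, and how often their number alone would place them side by side was not worked out. A run was counted as consecutive KO-only origins with no U2OS origin, and so no shared origin, between them. There were 20935 runs: 14753 held 1 origin (44.3% of all KO-only origins), runs of 2 to 4 held 13327 (39.98%), 602 runs of 5 to 9 held 3589 (10.8%), and 93 runs of 10 or more held 1665 (4.995%). The long runs were unevenly placed. Chromosome 7 had 22 with 416 KO-only origins, chromosome 10 had 15 with 300, and chromosome 21 had 8 with 241, which were 41.55% of all KO-only origins of that chromosome. Chromosomes 3, 12, 16, 17 and 22 had none.

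The lists met KO-only origins in long runs at other rates than those alone. SKP2 of RepID KO cells met 5.465% (4.47 to 6.66%) in runs of 10 or more and 2.58% (2.34 to 2.85%) in runs of 1, and SKP2 of WT cells 4.565% (3.66 to 5.68%) and 2.66% (2.42 to 2.94%). CUL4A met 12.25% (10.8 to 13.9%) and 21.9% (21.3 to 22.6%), and H3K4me3 9.97% (8.62 to 11.5%) and 14.5% (13.9 to 15.03%). SKP2 was thus found more often and CUL4A and H3K4me3 less often in the long runs. For CDT2 and H3K9me3 the shares were 3.24 and 6.49% in long runs and 4.62 and 7.78% in runs of 1, with overlapping intervals for H3K9me3. Origins in long runs were wider, with a median of 1800 against 1400 bp, and the part of width was not tested.

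Counted over their whole length instead of at origins, the 93 long runs covered 39.6 Mb. They held fewer CUL4A, CDT2 and H3K9me3 regions per Mb than their chromosomes, while for H3K4me3 this differed between chromosomes. CUL4A had 6.71 regions per Mb against 19.96 over the chromosomes with such runs, each weighted by the length of its runs, a ratio of 0.336. The ratio was 0.297 for CDT2, 0.443 for H3K9me3 and 0.679 for H3K4me3. In contrast, SKP2 peaks of RepID KO cells had 6.31 per Mb against 5.05, a ratio of 1.25, SKP2 peaks of WT cells had a ratio of 0.906, and RepID KO origins, whose number defines a long run, had 42.0 per Mb against 30.8. Chromosome 19, on which all densities are high, weighed on these values: without its 3 runs the ratios were 1.45 for SKP2 of RepID KO cells, 1.14 for SKP2 of WT cells, 0.907 for H3K4me3, 0.469 for CUL4A, 0.397 for CDT2 and 0.516 for H3K9me3. Each chromosome average was taken over the whole length up to the largest end in any list, stretches without any region included. This lowers the averages, and its part in the ratios was not tested. The 3 chromosomes with the most KO-only origins in long runs differed. On chromosome 21 the ratios were 2.09 and 1.87 for SKP2 of RepID KO and WT cells, 1.18 for H3K4me3 and 0.481 for CUL4A, and on chromosome 7 they were 1.83, 1.59, 1.25 and 0.527 in that order. On chromosome 10 they were 1.49, 0.939, 0.741 and 0.453, so that SKP2 of WT cells and H3K4me3 were below the average there. The runs were chosen for the absence of U2OS origins, and why none was called there was not tested.

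**Figure D5:**
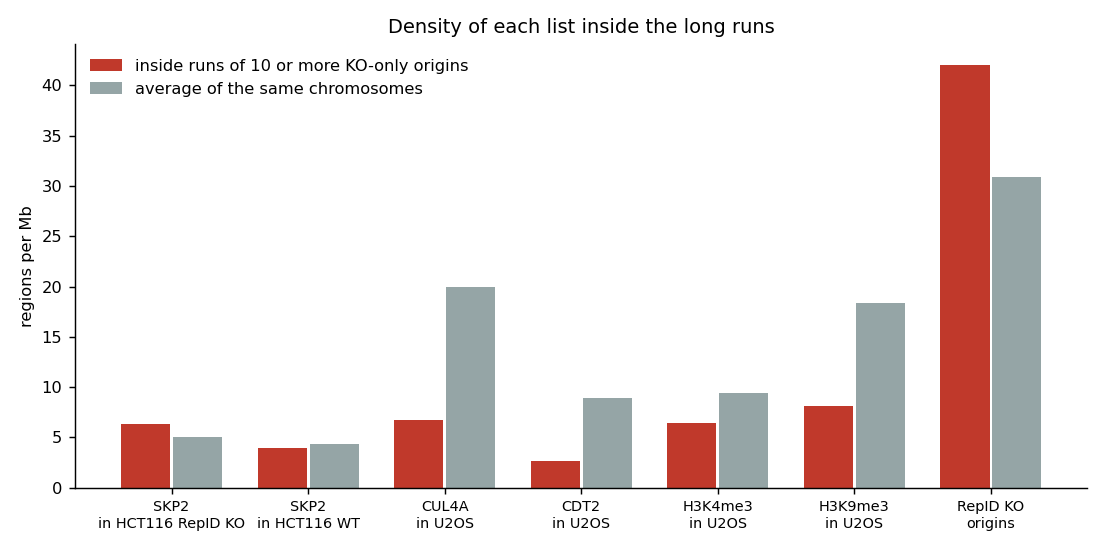
Regions per Mb of each of the 6 lists and of RepID KO origins inside the 93 runs of 10 or more KO-only origins (red) and as the average of the same chromosomes, weighted by the length of their runs (grey), 1 library per list and bars from 0. CUL4A stands at 6.71 against 19.96 per Mb, SKP2 of RepID KO cells at 6.31 against 5.05 per Mb, and RepID KO origins at 42.0 against 30.8 per Mb.

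The longest run lay on chromosome 7 from 146813401 to 149464600 and held 82 KO-only origins over 2.65 Mb. Their widths ranged from 400 to 10400 bp with a median of 1800 bp, and their scores from 40 to 2081 with a median of 138.5. It held 29 H3K4me3 peaks, 10.9 per Mb against 8.10 over chromosome 7, and 13 of its origins met one. It held 13 SKP2 peaks of RepID KO cells, 4.90 per Mb against 4.29, and 9 of WT cells, 3.40 per Mb against 4.12. SKP2 peaks of RepID KO cells met 1 of its origins and those of WT cells met 3. CUL4A was sparse, with 7 regions, 2.64 per Mb against 18.2, and 7 origins of the run met one. U2OS origins average 38.2 per Mb on this chromosome, and by the definition of a run none was called over these 2.65 Mb. Why none was called there was not tested.

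The run with the next highest number lay on chromosome 19 from 21903201 to 24161200, with 72 KO-only origins over 2.26 Mb. It held 9 H3K4me3 peaks, 3.99 per Mb against 27.5 over chromosome 19, 5 CUL4A regions, 2.21 per Mb against 51.1, and 4 H3K9me3 peaks. SKP2 had 19 peaks there in RepID KO cells and 5 in WT cells, and both densities, 8.42 and 2.21 per Mb, were below those of the chromosome, 11.3 and 9.10. On chromosome 21, from 40371601 to 41341800, 58 KO-only origins lay within 0.970 Mb. That run held 10 SKP2 peaks of RepID KO cells, 6 of WT cells and 10 H3K4me3 peaks, each denser than over the chromosome, and 6 CUL4A regions, 6.18 per Mb against 15.6. The 3 longest runs had in common densities of CUL4A, CDT2 and H3K9me3 below those of their chromosomes. On chromosomes 7, 19 and 21 in that order, CDT2 had 1.509, 0.8857 and 5.154 per Mb against 8.113, 19.98 and 7.502. H3K9me3 had 9.053, 1.771 and 8.246 per Mb against 19.76, 27.3 and 13.8. The runs differed in H3K4me3 and in both SKP2 lists, each denser than the chromosome in some runs and sparser in others.

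The KO-only origin farthest from a U2OS origin lay in the run on chromosome 7, from 148027001 to 148029200, with 1444400 bp to the nearest one. It was 2200 bp wide, had a score of 198, and met 2 SKP2 peaks of RepID KO cells, 1 of WT cells, 1 CDT2 peak and 2 H3K9me3 peaks. The next, from 148036601 to 148037000, was 400 bp wide and lay wholly inside an H3K4me3 peak. The one after it, from 148060601 to 148062200, met 1 SKP2 peak of WT cells and no other list.

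The highest score of a KO-only origin, 147043, was on chromosome 4 from 49093201 to 49158800, a region of 65600 bp and 30400 bp from a U2OS origin. It lay wholly inside 1 CUL4A region and met 21 CDT2 peaks, 11 SKP2 peaks of RepID KO cells, 12 of WT cells and 6 H3K9me3 peaks, but no H3K4me3 peak. The next, 136557, was on chromosome 10 from 42354801 to 42403200 and met 10 SKP2 peaks of RepID KO cells, 8 of WT cells, 1 CDT2 peak and 4 H3K9me3 peaks, but no CUL4A region. The 3rd highest, 94693, was on chromosome 18 from 105401 to 112600, where 7200 bp met 2 H3K9me3 peaks and no other list. These were also the 3 highest scores among KO-only origins that met H3K9me3. The 3rd highest score among those with SKP2 of RepID KO cells was 71765, on chromosome 2 from 92289601 to 92326200, in a region that met 4 such peaks and 7 H3K9me3 peaks. The widest KO-only origin lay on chromosome 21 from 10772001 to 10860800, over 88800 bp and 2200 bp from a U2OS origin. It met 9 CUL4A regions, 47 CDT2 and 12 H3K9me3 peaks, 11 SKP2 peaks of RepID KO cells and 9 of WT cells. The one on chromosome 4 with the highest score was next in width. The 3rd widest, on chromosome 4 from 9212601 to 9274600, had a score of only 4727 and met 5 SKP2 peaks of RepID KO cells, none of WT cells and 1 H3K9me3 peak.

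Most of the highest scores lay near stretches without any region. On each chromosome, the longest stretch without a region in any of the 8 lists was found, and 14 of the 20 KO-only origins with the highest scores (70%) lay within 2 Mb of it, against 991 of all KO-only origins (2.97%). The region on chromosome 18 named above was an exception, at 15288400 bp. Of the 20 shared origins with the highest scores, 1 lay within 2 Mb of such a stretch, against 2.72% of all shared origins. KO-only origins were 41.9% of the RepID KO origins within that distance and 39.7% of all. None of the 3 KO-only origins with the highest scores met H3K4me3. Among those that met it, the highest score was 32003 on chromosome 16 from 33948001 to 33968800, with 3 H3K4me3 peaks and 1 CUL4A region. The next was 15332 on chromosome 3 from 75716801 to 75722000, wholly inside a CUL4A region, and then 9393 on chromosome 4 from 980601 to 999600, with 4 H3K4me3 peaks, 2 CUL4A regions and no SKP2 peak.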

How the data were processed

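Nascent DNA strands of 0.5 to 2 kb were purified by the study with lambda exonuclease and sequenced, and origins were called against genomic DNA with SICER (window 200 bp, gap 600 bp, false discovery rate 0.01). CUL4A regions were called with SICER at 1e-05 and SKP2 and CDT2 peaks with MACS. For the histone marks the methods name SICER, but the deposited columns are those MACS2 writes for broad peaks. The submitters' processing notes name hg19, MACS and SICER without versions. Each deposited list gives chromosome, start, end and a score of the authors, whose scale is not stated. Scores were used to rank regions within a list and, whole or per kb, to describe the RepID KO origins. No reads or totals were used here, so the depth, and the precision it would give, is unknown.

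Regions that shared at least 1 bp were counted as meeting. Shares have Wilson 95% intervals and differences Newcombe intervals, with Python 3.11.15, NumPy 2.4.6, pandas 2.3.3 and matplotlib 3.10.9. Overlap, covered length and distance were tested on simulated data, where 0 of 2000 answers of each kind differed from a direct count. The regions named are, among KO-only origins, the 3 with the highest score, the 3 widest, the 3 farthest from a U2OS origin, the 3 longest runs, and the 3 with the highest score among those that met SKP2 of RepID KO cells, H3K9me3 or H3K4me3. The members, lists and classes were chosen with earlier results of these data known. Gene positions and gene lists, planned for an annotation of the same build, were left out because the one at hand is of another build. Other chromosomes were left out of these shares. One input sample with conflicting labels was put in no group. Alternatives covered the definition of KO-only and shared, the strength of both lists, width, region and chromosomes.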

Additional observations from a re-analysis of the deposited data

Results flagged for a closer look

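Chromosome X was outside the comparisons of the report. There, 1056 of 1568 RepID KO origins shared no base with a U2OS origin, 67.35% (Wilson 95% interval 65.0 to 69.6%), against 39.7% on chromosomes 1 to 22. It drew attention as a signal in data that the report does not use, and its share lies between those of chromosomes 4 and 13. The U2OS list had 1234 origins on this chromosome. No control sample exists for this share, and no cause was tested.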

How the results depend on the processing

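KO-only origins were 39.7% of RepID KO origins as defined. The share was 21.5% with no U2OS origin allowed within 5 kb, 50.7% with less than 50% of the width covered by U2OS origins, 25.3% among the stronger 50% of RepID KO origins, 54.0% against the stronger 50% of U2OS origins, 37.9% without chromosomes 4, 13 and 18, and 38.5% without runs of 10 or more KO-only origins, an alternative that, like those within width classes and windows, was chosen after seeing the data. Over the 6 lists and 11 alternatives, all 66 differences between KO-only and shared origins had the KO-only share lower and 0 reversed, while 48 left the interval of the reported difference. Differences are given in percentage points, in the order SKP2 of RepID KO cells, SKP2 of WT cells, CUL4A, CDT2, H3K4me3 and H3K9me3, and the cause of each change was not tested. With no U2OS origin within 5 kb they were -4.23, -4.05, -28.2, -9.41, -5.89 and -11.3. With less than 50% of the width covered they were -3.98, -3.64, -24.3, -8.71, -7.78 and -11.2. Among the stronger RepID KO origins they were -6.38, -6.54, -31.8, -13.2, -6.59 and -16.75. With 1 kb around each centre they were -1.73, -1.43, -25.1, -4.55, -5.31 and -4.57. At origins of 1 to 3 kb they were -2.99, -2.68, -21.0, -7.27, -7.20 and -8.01. Within width classes they were -3.01, -2.81, -21.2, -7.74, -6.66 and -8.54. Against the stronger 50% of each partner list they were -5.00 for SKP2 of RepID KO cells, -4.23 for SKP2 of WT cells, -8.15 for CDT2, -7.92 for H3K4me3 and -10.0 for H3K9me3. Against the stronger 50% of U2OS origins they were -29.75 for CUL4A, -11.4 for CDT2 and -8.72 for H3K4me3. Within windows of 5 Mb they were -26.4 for CUL4A, -11.1 for CDT2, -10.2 for H3K4me3 and -13.5 for H3K9me3. No paired analysis was possible because each condition has 1 sample, and for the same reason no replicate could be left out.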
